A study of Mus musculus with 9 samples.

Results

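Genomic imprinting leaves a gene expressed mainly from the copy inherited from the mother or mainly from the copy inherited from the father. The choice is set by DNA methylation at imprinting control regions, which is laid down in the germline and copied at each cell division by Dnmt1 and its partner Uhrf1. Imprinted genes lie in clusters, here called domains, in which paternally and maternally expressed protein genes and long non-coding RNAs share a control region. Many of them act on growth, and several are known from neural stem cells (NSCs) and the developing brain.

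The genes described here are 45 mouse imprinted genes out of 55704 genes in the expression table. They were taken by symbol from a list of known imprinted genes, with earlier results of these data known. They comprise 23 paternally and 22 maternally expressed genes of 19 domains on 10 chromosomes, with 16 genes on chromosome 7. All of them were found in the table, and 34 had a mean of at least 0.1 FPKM (fragments per kilobase of transcript, scaled to the size of the library) over all libraries and entered the test. The expression values sum both parental copies, so allelic expression was not measured. The parental labels used below are general ones for known imprinted genes, and whether they hold in these cells was not tested.

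NSCs were isolated from the subventricular zone (SVZ) of adult C57BL/6 mice aged 8 to 9 weeks, with 2 female and 2 male mice used for an isolation, and were passaged at least 3 times with EGF and bFGF at 20 ng/mL each. The bFGF/EGF group was collected on day 0 as the proliferating control, and 16 to 18 h of adherent culture is given for it as well. For the bFGF/BMP4 group, cells plated on poly-L-ornithine and laminin in bFGF/EGF for 16 to 18 h were moved to 20 ng/mL bFGF plus 20 ng/mL BMP4 for 6 days, and for the BMP4 group to 20 ng/mL BMP4 alone for 6 days. Each group had 3 RNA-seq libraries, named replicates 1 to 3, and per-library values are given below in that order. No group had 6 days of bFGF/EGF, so days in culture and the change of medium cannot be told apart in comparisons with bFGF/EGF. The labels do not say whether replicates came from separate isolations, so the p-values measure only the spread between these samples.

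The libraries held 15894346 to 17421587 fragments on genes, a number rebuilt from the FPKM values, and correlated at r = 0.95 to 0.964 within groups and at most 0.915 between groups. Of 8 NSC markers all passed the filter. Sox2 was at 130 to 202 FPKM in bFGF/EGF, 125 to 149 in bFGF/BMP4 and 121 to 146 in BMP4, whereas Nes fell from 145 to 157 FPKM to 2.96 to 3.94 in bFGF/BMP4 and 10.7 to 20.7 in BMP4. Summed over the lists of other cell types, markers of leptomeningeal and perivascular fibroblasts (4 of 10 past the filter, Tbx18 at 0) were at 0.574 to 0.896, 2.26 to 2.65 and 26.3 to 31.5 FPKM in bFGF/EGF, bFGF/BMP4 and BMP4, nearly all of it Ogn in BMP4, and ependymal markers (4 of 6, Tmem212 at 0) at 7.89 to 12.4, 10.4 to 11.4 and 57.97 to 70.1. Neuron and neuroblast markers (7 of 8) were at 38.8 to 42.4, 23.7 to 30.6 and 115.7 to 195.5 FPKM, mostly Tubb3 in BMP4, and oligodendrocyte lineage markers (5 of 7) at 12.2 to 17.2, 9.39 to 11.04 and 24.6 to 30.7. The choroid plexus (4 of 6), endothelial (1 of 7, Cldn5 at 0), mural (2 of 7) and microglia (2 of 7, C1qa at 0) lists each summed to under 7 FPKM in every library. These lists moved with the groups and their part in the imprinted genes' values was not tested. In bulk RNA, fewer cells of a type and less RNA per cell cannot be told apart.

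BMP4 replicate 2 stood apart from its group by transcript length. Among genes with a mean of at least 1 FPKM, the 2606 genes under 2 kb lay at a median of 0.24 log2 above the group mean in that library and the 2189 genes over 8 kb at -0.19, against -0.12 and 0.10 in replicate 1 and -0.08 and 0.09 in replicate 3. A smaller shift of this kind was seen in bFGF/EGF replicate 2 (0.15 and -0.10). Of the 34 tested imprinted genes, BMP4 replicate 2 had the highest FPKM of all libraries for 10 (Ascl2, Tssc4, Dlk1, Snrpn, Sgce, Asb4, Blcap, Plagl1, Impact and Commd1) and the lowest for 7 (Kcnq1ot1, Peg3, Peg12, Ppp1r9a, Igf2r, Airn and Gnas). For bFGF/EGF replicate 2 these numbers were 9 and 2. The part of the length shift in the values of the imprinted genes was not tested.

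Promoter windows of Mest, Peg12, Nnat, Grb10 and Plagl1, the called genes with the largest fold in any of the 3 comparisons, are shown first. So is that of Peg3, whose start faces that of Usp29. They were searched for the short site of a factor that acts at imprinting control regions, and were not chosen as such regions. ZFP57, a zinc finger protein that protects methylation at imprinting control regions, binds the hexamer TGCCGC when its CpG is methylated. Windows of 250 bases before to 50 bases after the start were taken from RefSeq (GRCm38.p6), in which 36 of the 45 genes matched by symbol, and were placed on GRCm39 by an exact match. The window with the most CpG is shown for each gene, with the hexamer in capitals on either strand (TGCCGC or GCGGCA). The hexamer holds a CpG and is counted among the CpG below.

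Mest, GRCm39 chr6:30737799-30738098, plus strand, 17 CpG and 2 hexamers, the gene with the largest fall after BMP4.

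Mest: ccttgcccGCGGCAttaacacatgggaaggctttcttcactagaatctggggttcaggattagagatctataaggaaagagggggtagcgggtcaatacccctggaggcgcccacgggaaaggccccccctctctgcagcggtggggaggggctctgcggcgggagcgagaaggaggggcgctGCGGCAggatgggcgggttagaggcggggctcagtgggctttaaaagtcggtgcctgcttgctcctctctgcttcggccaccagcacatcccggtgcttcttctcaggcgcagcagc

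Peg12, chr7:62114209-62114508, minus strand, 12 CpG and no hexamer, which fell stepwise from bFGF/EGF to bFGF/BMP4 to BMP4 as Mest and Nnat did.

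Peg12: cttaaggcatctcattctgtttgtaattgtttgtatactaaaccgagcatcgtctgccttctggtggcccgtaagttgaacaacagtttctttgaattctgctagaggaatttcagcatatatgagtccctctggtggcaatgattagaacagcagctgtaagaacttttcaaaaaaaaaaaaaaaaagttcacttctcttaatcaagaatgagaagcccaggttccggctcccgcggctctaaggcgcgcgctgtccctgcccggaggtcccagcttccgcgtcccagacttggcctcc

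Nnat, chr2:157401748-157402047, plus strand, 17 CpG and 1 hexamer.

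Nnat: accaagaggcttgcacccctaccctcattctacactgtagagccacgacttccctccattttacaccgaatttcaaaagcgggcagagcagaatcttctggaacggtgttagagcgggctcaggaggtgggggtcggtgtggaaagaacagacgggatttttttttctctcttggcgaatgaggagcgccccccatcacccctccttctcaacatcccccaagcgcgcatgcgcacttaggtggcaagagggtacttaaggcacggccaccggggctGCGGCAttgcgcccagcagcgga

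Grb10, chr11:11987371-11987670, minus strand, 45 CpG and 1 hexamer, which fell in BMP4 and not in bFGF/BMP4 at the threshold used.

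Grb10: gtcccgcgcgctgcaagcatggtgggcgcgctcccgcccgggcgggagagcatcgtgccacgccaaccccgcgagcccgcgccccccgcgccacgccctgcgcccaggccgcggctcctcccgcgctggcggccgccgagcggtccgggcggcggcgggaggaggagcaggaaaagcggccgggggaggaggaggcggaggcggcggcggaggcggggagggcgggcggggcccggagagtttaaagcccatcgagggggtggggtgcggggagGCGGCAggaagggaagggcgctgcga

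Plagl1, chr10:12966326-12966625, plus strand, 26 CpG and 1 hexamer, which fell in bFGF/BMP4 and rose in BMP4.

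Plagl1: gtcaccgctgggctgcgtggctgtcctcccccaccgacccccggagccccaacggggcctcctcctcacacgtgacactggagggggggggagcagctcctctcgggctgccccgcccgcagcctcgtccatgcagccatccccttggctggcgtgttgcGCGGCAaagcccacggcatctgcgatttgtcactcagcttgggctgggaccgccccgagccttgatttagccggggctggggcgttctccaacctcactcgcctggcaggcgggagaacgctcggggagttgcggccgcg

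Peg3, chr7:6733369-6733668, minus strand, 13 CpG and no hexamer. This window also holds the annotated start of Usp29, which is transcribed the opposite way from 109 bases away.

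Peg3: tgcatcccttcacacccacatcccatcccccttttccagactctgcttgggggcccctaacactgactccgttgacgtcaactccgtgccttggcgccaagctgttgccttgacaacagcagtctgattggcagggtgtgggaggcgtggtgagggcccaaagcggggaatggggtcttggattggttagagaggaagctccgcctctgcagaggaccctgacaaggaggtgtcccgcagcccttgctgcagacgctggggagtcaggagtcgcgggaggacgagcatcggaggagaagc

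Of the 55 windows of the 36 matched genes, 13 (23.6%) held the hexamer, against 11.6% of all 32851 windows in the table. With only the most CpG-rich window of each gene, it was found in 10 of 36 genes (27.8%), against 12.2% of 27025 genes. The median number of CpG in these windows was 17 for the imprinted genes and 8 for all genes. A match is only a string in the window, and neither binding nor methylation was measured.

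The first comparison asked how the imprinted genes differed between bFGF/BMP4-treated NSCs and proliferating bFGF/EGF-treated NSCs. A gene was called where limma with Benjamini-Hochberg adjustment over all 20207 tested genes gave an adjusted p of at most 0.05 and the fold on the log2(FPKM + 0.1) scale was at least 2. Differences below are log2 fold changes on this scale with their SE. Mest, Peg12, Nnat, Dlk1, H19, Plagl1, Ddc, Ndn and Meg3 fell, and Zim1 and Tssc4 rose. Thus 9 of the 34 tested imprinted genes (26.5%) were called lower, where 14.1% of all tested genes were, and 2 (5.88%) were called higher, where 16.5% of all tested genes were. Their median log2 fold change was -0.39, and that of all tested genes 0.06. Of the 9 that fell, 7 are paternally expressed, among 18 tested paternally expressed genes whose median was -0.84. The 16 tested maternally expressed genes had a median of -0.18, with 2 called lower and 2 higher. No paternally expressed gene was called higher by limma, 2 had an unadjusted p under 0.05 in that direction, and limma-voom on the rebuilt fragments called 0. The FPKM of 24 of the 34 genes (70.6%) did not overlap between the groups, where that of 57.7% of all tested genes did not. Of these, 17 lay lower in bFGF/BMP4 and 7 higher, against 27.5% and 30.2% of all tested genes.

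In BMP4-treated NSCs compared with bFGF/EGF, Mest, Peg12, Nnat, Grb10 and Igf2r fell, and Zim1, Ascl2, Tssc4, Plagl1 and Impact rose. The 5 genes lower made 14.7% of the 34 tested, where 15.4% of all genes were called lower, and the 5 higher made the same share, where 21.3% of all genes were called higher. The median log2 fold change was -0.31 for the imprinted genes and 0.10 for all genes. The median was -0.55 for the paternally expressed genes, of which 2 rose and 3 fell, and 0.00 for the maternally expressed genes, of which 3 rose and 2 fell. The FPKM ranges of 23 genes (67.6%) did not overlap, where those of 60.4% of all tested genes did not, and 14 lay lower in BMP4 and 9 higher, against 27.8% and 32.6% of all tested genes. Without BMP4 replicate 2, 4 genes rose and 5 fell, and on the TPM scale or with median-ratio scaling 4 rose and 6 fell. Both comparisons with bFGF/EGF use the same bFGF/EGF libraries.

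The BMP4 and bFGF/BMP4 groups, both collected on day 6, differ by bFGF in the medium. Plagl1, Dlk1 and Meg3 were higher in BMP4 and Grb10, Peg12, Nnat and Mest were lower. The 3 genes higher were 8.82% of the 34 tested, where 8.41% of all genes were called, and the 4 lower were 11.8%, where 5.14% of all genes were called. The median log2 fold change of the imprinted genes was 0.10, and that of all genes 0.00. The FPKM of 17 genes did not overlap between these groups, 10 higher and 7 lower in BMP4, where 38.7% of all tested genes did not overlap, 20.5% higher and 18.3% lower. Peg12, Mest, Nnat and Plagl1 were called in all 3 comparisons. Without BMP4 replicate 2 the counts were again 3 and 4.

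**Figure D1:**
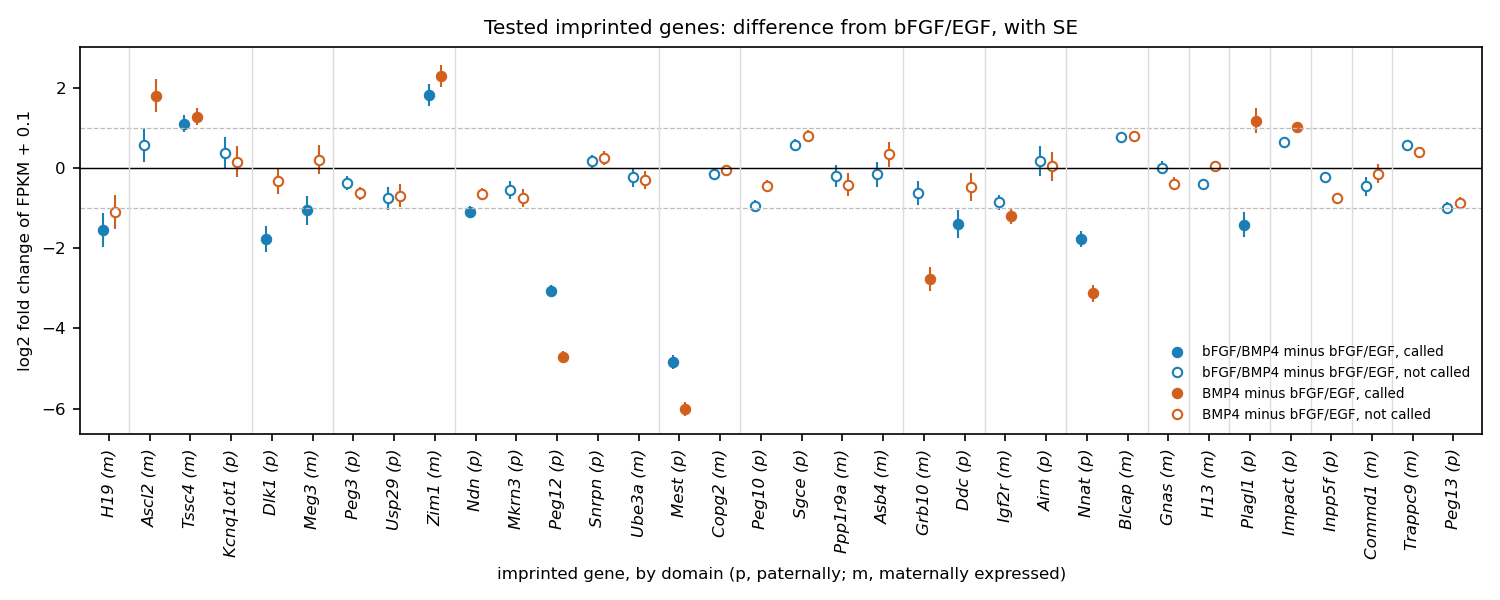
Log2 fold change of FPKM + 0.1 (vertical axis) of the 34 tested imprinted genes in bFGF/BMP4 (blue) and BMP4 (orange) against bFGF/EGF, with SE bars from limma. Filled points were called, vertical lines separate domains and dashed lines mark a fold of 2. Mest and Peg12 lie lowest in both, and Plagl1 lies below the lower dashed line in bFGF/BMP4 and above the upper one in BMP4.

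Mest encodes a protein of the alpha/beta-hydrolase fold family and is widely expressed in the embryo (GRCm39 chr6:30723546-30752058, plus strand). It was at 183, 203 and 166 FPKM in bFGF/EGF, 4.75, 6.61 and 7.91 in bFGF/BMP4, and 2.70, 2.83 and 2.66 in BMP4. No group overlapped another, and the BMP4 libraries were lowest. The log2 fold change was -4.84 (SE 0.17, adjusted p = 5.27e-08) in bFGF/BMP4 and -6.02 (SE 0.17, adjusted p = 1e-08) in BMP4, a 64.9-fold decrease, and -1.17 (SE 0.17, adjusted p = 0.000852) from bFGF/BMP4 to BMP4. The last call was lost with a pseudocount of 1, at -0.97.

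Copg2, a subunit of the coatomer coat that is maternally expressed, overlaps Mest on the opposite strand. It was at 17.04, 15.6 and 15.99 FPKM in bFGF/EGF, 13.2, 14.2 and 16.6 in bFGF/BMP4, and 15.7, 16.00 and 15.5 in BMP4, so its groups overlapped. Its log2 fold changes were -0.15 and -0.04 against bFGF/EGF (SE 0.11, adjusted p = 0.295 and 0.788). The Mest to Copg2 ratio of FPKM was 10.4 to 13.03 in bFGF/EGF, 0.360 to 0.477 in bFGF/BMP4 and 0.171 to 0.177 in BMP4. Klf14, a transcription factor of the same domain, had 3 fragments at most in any library.

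Nnat encodes neuronatin, a small membrane proteolipid of the endoplasmic reticulum, and lies within the Blcap gene on the opposite strand (chr2:157401879-157404573, plus strand). It was at 164, 211 and 139.8 FPKM in bFGF/EGF, 37.6, 50.9 and 63.6 in bFGF/BMP4, and 21.3, 18.7 and 17.97 in BMP4. The groups were separate and stepped down as for Mest, with -1.77 (SE 0.20, adjusted p = 6.88e-05) in bFGF/BMP4, -3.13 (SE 0.20, adjusted p = 1.23e-06) in BMP4 and -1.36 (SE 0.20, adjusted p = 0.00103) between them. Blcap, a small membrane protein first described in bladder cancer, is reported as maternally expressed in brain, and was at 15.8, 18.1 and 16.7 FPKM in bFGF/EGF, 27.5, 29.6 and 29.8 in bFGF/BMP4, and 26.2, 31.1 and 30.96 in BMP4. All 6 day 6 libraries were above the bFGF/EGF libraries, and Blcap passed the adjusted p but not the fold, with 0.78 (SE 0.11, adjusted p = 0.000239) in bFGF/BMP4 and 0.80 (SE 0.11, adjusted p = 0.00016) in BMP4. The Nnat to Blcap ratio went from 8.35 to 11.7 in bFGF/EGF to 1.37 to 2.13 in bFGF/BMP4 and 0.580 to 0.815 in BMP4.

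Peg13, a paternally expressed non-coding RNA, lies inside the gene of Trappc9, a subunit of the TRAPP trafficking complex, on the same strand. Peg13 was at 23.9, 25.03 and 21.4 FPKM in bFGF/EGF, 9.63, 11.97 and 13.9 in bFGF/BMP4, and 13.3, 11.2 and 13.8 in BMP4, lower in every day 6 library than in any bFGF/EGF library. Trappc9 was at 7.54, 9.03 and 6.72 FPKM in bFGF/EGF, 11.6, 10.8 and 12.4 in bFGF/BMP4, and 10.1, 10.3 and 10.4 in BMP4, higher in every day 6 library. Neither reached a fold of 2 in either comparison: Peg13 had -0.99 (SE 0.15, adjusted p = 0.000402) in bFGF/BMP4 and -0.88 (SE 0.15, adjusted p = 0.00071) in BMP4, and Trappc9 0.58 (SE 0.13, adjusted p = 0.00378) and 0.41 (SE 0.13, adjusted p = 0.0198). Peg13 lay at the fold threshold in bFGF/BMP4 and was called there on the TPM scale (-1.01), with median-ratio scaling (-1.02), with limma-voom (-1.11) and without bFGF/EGF replicate 3 (-1.06), bFGF/BMP4 replicate 2 (-1.01) or bFGF/BMP4 replicate 3 (-1.12).

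In the Peg10 domain, Peg10, a gene derived from a retrotransposon, and Sgce, epsilon-sarcoglycan, are both paternally expressed from starts 99 bases apart. Peg10 was at 45.7, 44.2 and 39.1 FPKM in bFGF/EGF, 24.6, 22.8 and 19.99 in bFGF/BMP4, and 34.7, 25.2 and 35.3 in BMP4, and its lowest libraries were those of bFGF/BMP4. Sgce was at 2.67, 2.76 and 2.54 FPKM in bFGF/EGF, 3.78, 3.73 and 4.57 in bFGF/BMP4, and 4.25, 5.54 and 4.44 in BMP4, and every day 6 library exceeded the bFGF/EGF libraries. Peg10 had -0.94 (SE 0.15, adjusted p = 0.000577) in bFGF/BMP4, -0.45 (SE 0.15, adjusted p = 0.0276) in BMP4 and 0.49 (SE 0.15, adjusted p = 0.0454) between them, while Sgce had 0.58 (SE 0.15, adjusted p = 0.0103) and 0.80 (SE 0.15, adjusted p = 0.0013) against bFGF/EGF. The ratio of Peg10 to Sgce was 15.4 to 17.1 in bFGF/EGF, 4.37 to 6.52 in bFGF/BMP4 and 4.55 to 8.17 in BMP4, where replicate 2 gave the lowest value. Peg10 was called lower in bFGF/BMP4 by limma-voom (-1.05) and without bFGF/EGF replicate 3 or bFGF/BMP4 replicate 1 (-1.002 and -1.004).

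Ppp1r9a, which encodes the actin-binding protein neurabin, was at 5.95, 4.95 and 9.00 FPKM in bFGF/EGF, 5.48, 5.31 and 5.96 in bFGF/BMP4, and 5.75, 3.07 and 6.28 in BMP4. Its groups overlapped, BMP4 replicate 2 was the lowest library, and its log2 fold changes were -0.20, -0.41 and -0.21 in the order of the comparisons above (adjusted p of 0.591, 0.247 and 0.671). Asb4 was at 0.133 to 0.267 FPKM in all libraries, and Calcr, the calcitonin receptor, had 1 fragment in 2 libraries and 0 in the others.

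**Figure D2:**
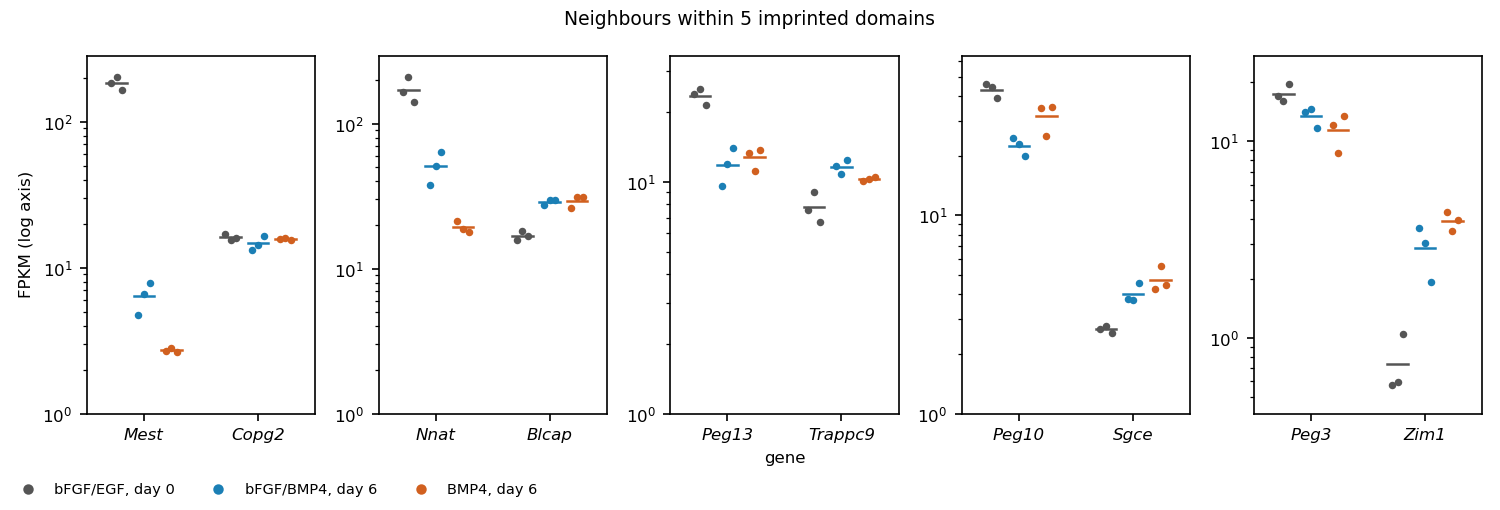
FPKM on log axes of neighbouring imprinted genes in 5 domains, with each point a library and each bar the mean of 3. Mest, Nnat, Peg13 and Peg10 were highest in bFGF/EGF (grey), whereas Blcap, Trappc9, Sgce and Zim1 were lowest there and Copg2 overlapped between groups.

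In the Peg3 domain, Peg3 encodes a large zinc finger protein, known from its part in growth and maternal behaviour, and Zim1 a maternally expressed zinc finger protein. Peg3 was at 16.9, 16.05 and 19.5 FPKM in bFGF/EGF, 14.1, 14.7 and 11.7 in bFGF/BMP4, and 12.1, 8.70 and 13.4 in BMP4, where BMP4 replicate 2 was lowest. Zim1 was at 0.575, 0.594 and 1.04 FPKM in bFGF/EGF, 3.63, 3.03 and 1.93 in bFGF/BMP4, and 4.36, 3.49 and 3.95 in BMP4, and each of its day 6 libraries was above each bFGF/EGF library. Zim1 rose in bFGF/BMP4 (log2 fold change 1.82, SE 0.28, adjusted p = 0.000402) and in BMP4 (log2 fold change 2.31, SE 0.28, adjusted p = 6.43e-05), whereas Peg3 had -0.37 (SE 0.17, adjusted p = 0.0972) and -0.63 (SE 0.17, adjusted p = 0.00987), the latter under a fold of 2. Peg3 exceeded Zim1 18.7 to 29.4 times in bFGF/EGF, 3.89 to 6.09 times in bFGF/BMP4 and 2.49 to 3.39 times in BMP4. Usp29, a deubiquitinase that shares the Peg3 promoter region printed above, was low, at 0.350 to 0.410 FPKM in bFGF/EGF, 0.154 to 0.200 in bFGF/BMP4 and 0.174 to 0.208 in BMP4. Its values did not overlap with bFGF/EGF but its adjusted p was 0.0541 in bFGF/BMP4 and 0.0645 in BMP4, and it was called lower in both with quantile normalization (-1.03 and -1.18) and limma-voom (-1.15 and -1.04).

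The Snrpn domain, which corresponds to the Prader-Willi and Angelman region, held genes that fell and genes that were not called. Peg12, of the Frat family of GSK3-binding proteins, was at 49.2, 57.1 and 41.5 FPKM in bFGF/EGF, 5.23, 6.07 and 5.92 in bFGF/BMP4, and 2.03, 1.57 and 1.75 in BMP4 (chr7:62111619-62114258, minus strand). No 2 groups overlapped, with -3.07 (SE 0.15, adjusted p = 2.92e-07) in bFGF/BMP4, -4.71 (SE 0.15, adjusted p = 1.65e-08) in BMP4 and -1.64 (SE 0.15, adjusted p = 4.9e-05) between them. Ndn encodes necdin, a MAGE protein that restrains cell cycle progression in postmitotic neurons, and was at 25.8, 30.5 and 23.7 FPKM in bFGF/EGF, 11.8, 12.7 and 12.7 in bFGF/BMP4, and 13.8, 20.2 and 17.2 in BMP4. Its lowest libraries were those of bFGF/BMP4, where it fell (log2 fold change -1.09, SE 0.15, adjusted p = 0.000224), and this call was lost at -0.99 without bFGF/EGF replicate 2. In BMP4 the difference of Ndn was -0.65 (SE 0.15, adjusted p = 0.00452).

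Snrpn, which encodes a core protein of the spliceosome, was at 21.5, 25.9 and 21.7 FPKM in bFGF/EGF, 23.3, 26.4 and 27.8 in bFGF/BMP4, and 22.1, 35.8 and 25.7 in BMP4, with overlapping groups and its highest value in BMP4 replicate 2. Ube3a, a ubiquitin ligase imprinted in neurons, was at 6.56, 3.69 and 6.57 FPKM in bFGF/EGF, 3.91, 4.95 and 5.02 in bFGF/BMP4, and 4.71, 3.83 and 4.63 in BMP4, and its groups overlapped as well. The log2 fold changes against bFGF/EGF were 0.17 and 0.25 for Snrpn and -0.23 and -0.30 for Ube3a, with adjusted p from 0.254 to 0.464. Mkrn3, a ubiquitin ligase that restrains the onset of puberty, was at 2.60 to 4.16 FPKM in bFGF/EGF, 1.89 to 2.83 in bFGF/BMP4 and 1.89 to 2.38 in BMP4, with -0.76 (SE 0.23, adjusted p = 0.0167) in BMP4. Magel2 was found in bFGF/EGF replicates 2 and 3, with 5 fragments each, and in no other library. Snrpn overlaps the pseudogene Gm7367 on the opposite strand, which was at 23.2, 13.9 and 7.15 FPKM on average in bFGF/EGF, bFGF/BMP4 and BMP4.

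Among the 34 tested genes, Plagl1 and Grb10 differed most between the BMP4 and bFGF/BMP4 groups. Plagl1 (Zac1), a paternally expressed zinc finger transcription factor known to slow the cell cycle and to act on other imprinted genes, was at 1.90, 1.98 and 2.49 FPKM in bFGF/EGF, 0.382, 0.975 and 1.01 in bFGF/BMP4, and 5.03, 5.35 and 4.44 in BMP4 (chr10:12936248-13007438, plus strand). It fell in bFGF/BMP4 (log2 fold change -1.41, SE 0.30, adjusted p = 0.00336), rose in BMP4 (log2 fold change 1.19, SE 0.30, adjusted p = 0.00748), and was 6.04-fold higher in BMP4 than in bFGF/BMP4 (log2 fold change 2.60, SE 0.30, adjusted p = 0.000218). The bFGF/BMP4 libraries lay below and the BMP4 libraries above all bFGF/EGF libraries. Both differences from bFGF/EGF missed the fold with a pseudocount of 1, at -0.82 and 0.93.

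Grb10, an adaptor protein that restrains signalling from the insulin and IGF1 receptors, was at 2.18, 2.30 and 2.12 FPKM in bFGF/EGF, 1.53, 1.10 and 1.60 in bFGF/BMP4, and 0.129, 0.224 and 0.414 in BMP4 (chr11:11880498-11988683, minus strand). The BMP4 libraries held 19, 33 and 62 fragments of it, against 330 to 341 in bFGF/EGF. Grb10 fell in BMP4 (log2 fold change -2.77, SE 0.30, adjusted p = 3.4e-05) and from bFGF/BMP4 to BMP4 (log2 fold change -2.15, SE 0.30, adjusted p = 0.00069), and its difference in bFGF/BMP4 was -0.62 (SE 0.30, adjusted p = 0.116). The call between the BMP4 media was lost with a pseudocount of 1, at -0.94. Ddc, the aromatic amino acid decarboxylase of dopamine and serotonin synthesis, lies in the same domain and was at 0.567, 0.326 and 0.343 FPKM in bFGF/EGF, 0.0977, 0.0584 and 0.122 in bFGF/BMP4, and 0.248, 0.180 and 0.381 in BMP4, that is 43, 23 and 27 fragments in bFGF/EGF and 4 to 8 in bFGF/BMP4. It fell in bFGF/BMP4 (log2 fold change -1.39, SE 0.36, adjusted p = 0.00873), and in BMP4 its difference was -0.47 (SE 0.36, adjusted p = 0.287). The fall was -0.37 with a pseudocount of 1, under a fold of 2.

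**Figure D3:**
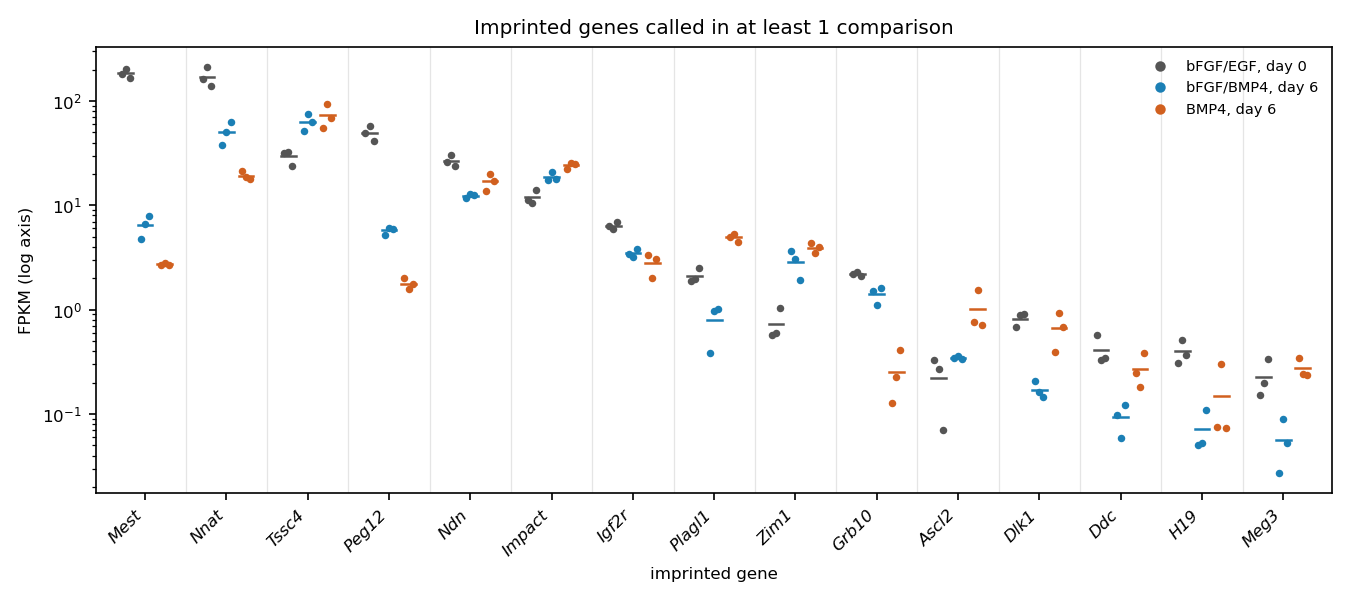
FPKM on a log axis of the 15 imprinted genes called in at least 1 comparison, ordered by their highest group mean, with each point a library and each bar a mean of 3. Mest, Nnat and Peg12 step down from bFGF/EGF through bFGF/BMP4 to BMP4, Grb10 is lowest in BMP4, and Plagl1, Dlk1, Ddc, Meg3, Ndn and H19 have their lowest mean in bFGF/BMP4.

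Dlk1, an atypical ligand of the Notch family described in the SVZ niche, belongs to a domain in which paternally expressed protein genes alternate with maternally expressed RNAs (Dlk1 at chr12:109418749-109429262, plus strand). It was at 0.676, 0.883 and 0.910 FPKM in bFGF/EGF, 0.209, 0.161 and 0.144 in bFGF/BMP4, and 0.392, 0.939 and 0.686 in BMP4, or 65 to 91, 12 to 19 and 36 to 86 fragments a library. The bFGF/BMP4 libraries were below all others, while bFGF/EGF and BMP4 overlapped. Dlk1 fell in bFGF/BMP4 (log2 fold change -1.76, SE 0.32, adjusted p = 0.00132) and was higher in BMP4 than in bFGF/BMP4 (log2 fold change 1.45, SE 0.32, adjusted p = 0.00969), with -0.31 (SE 0.32, adjusted p = 0.44) between BMP4 and bFGF/EGF. With a pseudocount of 1 both differences missed the fold, at -0.64 and 0.50.

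Meg3, a long non-coding RNA expressed from the maternal copy of the same domain, was at 0.153, 0.199 and 0.335 FPKM in bFGF/EGF, 0.0275, 0.0901 and 0.0526 in bFGF/BMP4, and 0.344, 0.242 and 0.238 in BMP4, from 47 to 107, 8 to 25 and 71 to 101 fragments. Its bFGF/BMP4 libraries were likewise the lowest, with -1.05 (SE 0.36, adjusted p = 0.0359) in bFGF/BMP4 and 1.27 (SE 0.36, adjusted p = 0.0329) from bFGF/BMP4 to BMP4. Both calls depended on single libraries. The first was lost without bFGF/EGF replicate 2 (adjusted p = 0.0557) or 3 (0.0939) and without bFGF/BMP4 replicate 1 (0.0833) or 3 (0.0665), and the second without bFGF/BMP4 replicate 1 (0.0767) or 3 (0.0721) and without BMP4 replicate 1 (0.0774), by limma with Benjamini-Hochberg adjustment. With a pseudocount of 1 the differences were -0.22 and 0.27.

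Rian, the RNA downstream of Meg3, did not reach the filter, with a mean under 0.1 FPKM. It had 78, 67 and 120 fragments in bFGF/EGF, 3, 3 and 2 in bFGF/BMP4, and 37, 23 and 14 in BMP4. Rian was therefore at or under the limit of 3 fragments in each bFGF/BMP4 library, and was at least 26.6-fold higher in bFGF/EGF and at least 7.76-fold higher in BMP4, taking 3 fragments per library as the floor. Without the filter limma called it lower in bFGF/BMP4 than in bFGF/EGF (adjusted p = 0.00158) and not in the other comparisons. Mirg and Rtl1 had at most 2 fragments in any library and Dio3, the deiodinase that inactivates thyroid hormone, had 0, which allows up to 3 fragments a library or 0.1005 FPKM. Across the domain the lowest group was bFGF/BMP4 for each of the 3 genes with more than 3 fragments. The rebuilt fragments cover counting error only. Whether the libraries carried molecular identifiers is not given in the sources used here.

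**Figure D4:**
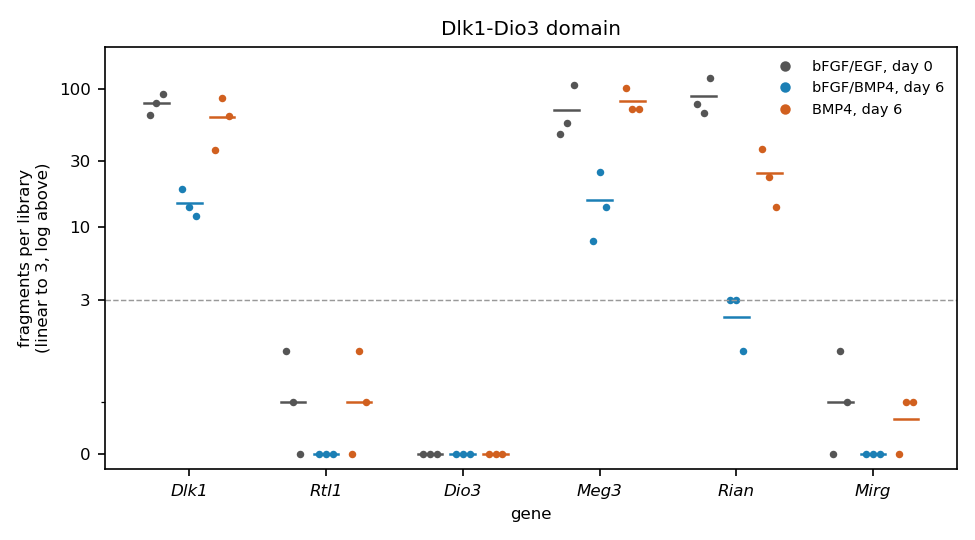
Fragments per library (linear to 3, log above) of the 6 genes of the Dlk1-Dio3 domain, with each point a library, each bar a mean of 3 and the dashed line at 3 fragments. Dlk1, Meg3 and Rian are lowest in bFGF/BMP4, and Rtl1, Dio3 and Mirg stay at or below 2 fragments.

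Igf2, the growth factor of the Igf2-H19 domain, had 0 fragments in all bFGF/EGF and bFGF/BMP4 libraries and 6, 3 and 4 in BMP4, or 0.0324 to 0.0646 FPKM. H19, the maternally expressed non-coding RNA of this domain, was at 0.311, 0.514 and 0.368 FPKM in bFGF/EGF, 0.0506, 0.0530 and 0.111 in bFGF/BMP4, and 0.0751, 0.301 and 0.0739 in BMP4, with 13, 20 and 16 fragments in bFGF/EGF, 2 to 4 in bFGF/BMP4, and 3, 12 and 3 in BMP4. H19 fell in bFGF/BMP4 (log2 fold change -1.54, SE 0.42, adjusted p = 0.0128). In BMP4, replicate 2 was the highest library, the difference from bFGF/EGF was -1.09 (SE 0.42, adjusted p = 0.0508), and without that library H19 was called lower at -1.49. It was also called lower in BMP4 on the TPM scale (-1.54), with median-ratio scaling (-1.12), quantile normalization (-1.66) and limma-voom (-1.67).

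Igf2r, the mannose 6-phosphate receptor that removes IGF2 from the cell surface, was at 6.29, 5.96 and 6.91 FPKM in bFGF/EGF, 3.42, 3.21 and 3.82 in bFGF/BMP4, and 3.32, 2.01 and 3.04 in BMP4. All day 6 libraries were below the bFGF/EGF libraries and BMP4 replicate 2 was the lowest. It fell in BMP4 (log2 fold change -1.19, SE 0.19, adjusted p = 0.000413), had -0.86 (SE 0.19, adjusted p = 0.00386) in bFGF/BMP4, and its call in BMP4 was lost without BMP4 replicate 2 (-0.98) and with a pseudocount of 1 (-0.98). Airn, the RNA antisense to Igf2r, was at 0.280 to 0.826 FPKM in all libraries and its groups overlapped, with log2 fold changes of 0.18 and 0.05 against bFGF/EGF (adjusted p = 0.716 and 0.927).

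In the Kcnq1ot1 domain, Tssc4, a factor of spliceosome assembly, was at 31.7, 32.5 and 24.02 FPKM in bFGF/EGF, 51.9, 75.7 and 62.7 in bFGF/BMP4, and 55.6, 93.4 and 68.9 in BMP4. Every day 6 library was above every bFGF/EGF library, and BMP4 replicate 2 was the highest. Tssc4 rose in bFGF/BMP4 (log2 fold change 1.10, SE 0.21, adjusted p = 0.00174) and in BMP4 (log2 fold change 1.28, SE 0.21, adjusted p = 0.00056). The first call was lost without bFGF/EGF replicate 3 (0.96) or bFGF/BMP4 replicate 2 (0.97) and with limma-voom (0.99). Tssc4 overlaps R74862 and Trpm5 on the opposite strand, which also were lowest in bFGF/EGF, at means of 2.08, 5.20 and 7.15 FPKM for R74862 and 0.913, 3.17 and 3.28 for Trpm5.

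Ascl2, a basic helix-loop-helix transcription factor of the trophoblast and intestinal stem cells, was at 0.326, 0.273 and 0.0697 FPKM in bFGF/EGF, 0.345, 0.361 and 0.335 in bFGF/BMP4, and 0.759, 1.56 and 0.710 in BMP4, with 20, 41 and 19 fragments in BMP4 and at most 9 elsewhere. It rose in BMP4 (log2 fold change 1.81, SE 0.42, adjusted p = 0.00424), with 1.23 (SE 0.42, adjusted p = 0.0641) from bFGF/BMP4 to BMP4. With a pseudocount of 1 the rise was 0.70, under a fold of 2. Between BMP4 and bFGF/BMP4 it was called with those 2 groups fitted alone (adjusted p = 0.0495 by limma) and without bFGF/EGF replicate 3 (adjusted p = 0.029). Kcnq1ot1, the non-coding RNA that silences its neighbours on the paternal copy, was at 0.0637 to 0.210 FPKM over a transcript long enough to hold 96 to 288 fragments a library, and its groups overlapped. Phlda2, a restraint on placental growth, had 0 fragments in every library, which allows up to 0.181 FPKM.

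Single-gene domains and the remaining genes gave 1 further call. Impact, an inhibitor of the amino acid sensor kinase Gcn2, was at 11.3, 10.5 and 13.9 FPKM in bFGF/EGF, 17.4, 20.98 and 18.00 in bFGF/BMP4, and 22.5, 25.4 and 24.8 in BMP4. The 3 groups did not overlap, and Impact had 0.66 (SE 0.13, adjusted p = 0.00226) in bFGF/BMP4 and rose in BMP4 (log2 fold change 1.03, SE 0.13, adjusted p = 0.000104). This call lay at the fold threshold and was lost without bFGF/EGF replicate 1 (0.99), bFGF/EGF replicate 2 (0.94) or BMP4 replicate 2 (0.99), with limma-voom (0.94), on the TPM scale (0.94), with median-ratio scaling (0.99) and with a pseudocount of 1 (0.97).

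Inpp5f, a phosphoinositide phosphatase, was at 19.9, 16.7 and 19.6 FPKM in bFGF/EGF, 14.8, 16.5 and 16.9 in bFGF/BMP4, and 11.4, 11.4 and 10.5 in BMP4, lowest in BMP4, with -0.74 (SE 0.11, adjusted p = 0.000293) against bFGF/EGF and -0.53 (SE 0.11, adjusted p = 0.00716) against bFGF/BMP4. Gnas, whose products include the stimulatory G protein alpha subunit, was at 16.4, 22.96 and 15.9 FPKM in bFGF/EGF, 21.2, 16.98 and 17.1 in bFGF/BMP4, and 13.8, 12.6 and 15.05 in BMP4. Its transcripts differ in which parental copy they come from and the table does not separate them, and its adjusted p was 0.956, 0.0627 and 0.109 in the 3 comparisons. H13, signal peptide peptidase, was at 13.6, 17.2 and 13.1 FPKM in bFGF/EGF, 11.6, 10.2 and 11.1 in bFGF/BMP4, and 15.3, 15.9 and 13.9 in BMP4 and was lowest in bFGF/BMP4, with -0.40 (SE 0.13, adjusted p = 0.0251) against bFGF/EGF and 0.45 (SE 0.13, adjusted p = 0.0315) in BMP4 against bFGF/BMP4. None of Inpp5f, Gnas and H13 reached a fold of 2.

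Commd1, a regulator of copper and protein trafficking, was at 1.72 to 3.37 FPKM with overlapping groups. Zdbf2 had 33, 18 and 25 fragments in bFGF/EGF, 5, 11 and 9 in bFGF/BMP4, and 9, 5 and 12 in BMP4, did not reach the filter, and without it had an adjusted p of 0.0725 and 0.0588 against bFGF/EGF in limma. Dcn, decorin, an extracellular matrix proteoglycan of fibroblasts, had 1 fragment in 1 library. In all, 7 of the 45 genes had at most 3 fragments in every library: Phlda2, Rtl1, Dio3, Mirg, Klf14, Calcr and Dcn. Another 19 genes were tested and called in none of the comparisons.

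Further imprinted genes, a list of 55 chosen in the same way and including some whose imprinting is known from few tissues, gave 35 tested genes. In bFGF/BMP4, 8 rose and 5 fell against bFGF/EGF, in BMP4, 12 rose and 8 fell, and from bFGF/BMP4 to BMP4, 6 rose and 2 fell. These were 22.9% and 14.3%, 34.3% and 22.9%, and 17.1% and 5.71% of the 35, where 16.5% and 14.1%, 21.3% and 15.4%, and 8.41% and 5.14% of all tested genes were called. The median log2 fold changes of the list were 0.05, 0.22 and 0.11, and those of all tested genes 0.06, 0.10 and 0.00. With genes at or under 3 fragments in a group set to their bound the first median was 0.02 and the others did not move. In the neighbourhood of the genes above, Pon2 (a paraoxonase) near Peg10 was at 2.85 ± 0.103, 21.1 ± 1.55 and 21.5 ± 4.34 FPKM and rose in both media, Cd81 (a tetraspanin) near Tssc4 was at 224 ± 34.4, 467 ± 46.02 and 613 ± 88.6 and rose in both, and Osbpl5 (a lipid transfer protein) was at 8.35 ± 1.82, 5.95 ± 0.349 and 17.8 ± 0.974 and rose in BMP4. Atp10a (a phospholipid flippase) near Ube3a was at 5.21 ± 0.234, 0.343 ± 0.0763 and 1.21 ± 0.346 FPKM and fell in both. Th, tyrosine hydroxylase of dopamine synthesis, had 0 fragments in bFGF/EGF. It was at 0.342, 0.469 and 0.518 FPKM in the bFGF/BMP4 libraries and 10.9, 11.5 and 6.64 in the BMP4 libraries. These were at least 5.86-fold and 128-fold higher than in bFGF/EGF, and Th was called in both media. Between the day 6 groups, Th, Osbpl5 and Atp10a were called higher in BMP4. With a pseudocount of 1, the calls of Th in bFGF/BMP4 (0.53) and of Atp10a between the day 6 groups (0.71) were lost.

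Elsewhere in the genome, Adam23 (a cell adhesion protein, 0.654 ± 0.0471, 5.35 ± 0.307 and 4.39 ± 0.580 FPKM) and Tbc1d12 (7.58 ± 1.44, 17.6 ± 1.61 and 15.5 ± 1.10) rose in both media, and Smoc1 (a secreted calcium-binding modulator of BMP signalling, 55.2 ± 12.6, 4.39 ± 1.04 and 14.6 ± 1.86) and Qpct (glutaminyl cyclase, 18.5 ± 0.398, 5.12 ± 1.51 and 4.20 ± 2.13) fell in both. Smoc1 was called 3.32-fold higher in BMP4 than in bFGF/BMP4. Gatm, of creatine synthesis, was at 58.04 ± 1.64, 81.4 ± 17.3 and 14.4 ± 5.95 FPKM and fell in BMP4 against each of the other groups. Leaving out a library ended the call of Osbpl5 in BMP4 (0.98 without bFGF/EGF replicate 3), of Cd81 in bFGF/BMP4 (0.97 without bFGF/EGF replicate 3) and of Tbc1d12 in BMP4 (0.91 without bFGF/EGF replicate 2 and 0.98 without BMP4 replicate 3). The call of Cd81 in bFGF/BMP4 was also lost with limma-voom (0.95), and that of Tbc1d12 in BMP4 with limma-voom (0.95), on the TPM scale (0.95), with median-ratio scaling (0.99) and with a pseudocount of 1 (0.95).

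Genes that establish, protect or copy imprints were listed separately as imprint maintenance genes, with 15 of 17 tested. This list also holds the methylcytosine dioxygenases Tet1, Tet2 and Tet3, which are not of these kinds but enter its counts and medians. Against bFGF/EGF, 6 fell and 1 (Tet2) rose in bFGF/BMP4, and 7 fell in BMP4, where 14.1% of all tested genes fell and 16.5% rose in bFGF/BMP4 and 15.4% fell in BMP4. The medians of the list were -0.49 and -0.80, and those of all tested genes 0.06 and 0.10. From bFGF/BMP4 to BMP4 Uhrf1 and Hells fell, where 5.14% of all tested genes did, with a median of -0.34 for the list and 0.00 for all tested genes. None was called higher in BMP4 against either group by limma, where 1 had an unadjusted p under 0.05 in each comparison and limma-voom called 0. Uhrf1 was at 62.1 ± 17.1, 7.31 ± 2.78 and 1.75 ± 0.208 FPKM, Dnmt1 at 57.04 ± 13.05, 12.2 ± 2.77 and 7.86 ± 0.962, Hells (a chromatin remodeller) at 8.99 ± 3.03, 2.07 ± 0.980 and 0.673 ± 0.0892, Trim28 (the corepressor that ZFP57 recruits) at 128 ± 22.5, 45.8 ± 4.57 and 39.2 ± 1.56, Setdb1 (its histone methyltransferase partner) at 17.5 ± 0.705, 9.13 ± 0.874 and 7.04 ± 0.892, and Tet3 (a methylcytosine dioxygenase) at 12.3 ± 0.712, 4.40 ± 0.251 and 3.30 ± 0.852. All 6 were called lower in BMP4 and all but Setdb1 in bFGF/BMP4, where Setdb1 was called by limma-voom (-1.06) and without bFGF/BMP4 replicate 3 (-1.01). Zfp57, named here for its hexamer after its values were seen, was at 2.41, 3.37 and 4.47 FPKM in bFGF/EGF, 0.543, 0.293 and 0.198 in bFGF/BMP4, and 1.22, 0.587 and 0.769 in BMP4 and fell in bFGF/BMP4 (log2 fold change -3.02, SE 0.36, adjusted p = 9.15e-05) and in BMP4 (log2 fold change -1.89, SE 0.36, adjusted p = 0.00149). The fall of Hells from bFGF/BMP4 to BMP4 was lost without bFGF/BMP4 replicate 2 (adjusted p = 0.0707) or 3 (0.0663), without BMP4 replicate 1 (0.0663) or 3 (0.0697), and with a pseudocount of 1 or those 2 groups alone (both 0.0508, limma).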

How the data were processed

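RNA-seq was measured in 9 libraries of cultured SVZ NSCs, 3 in each of 3 groups. Per the labels' processing notes, the submitters used fastp 0.19.7, HISAT2 2.0.5 and featureCounts 1.5.0-p3 with the mm39 build. The annotation release, the strand setting of the counting and the program that made the FPKM are not given in the sources used here, so genes that overlap on opposite strands may share fragments. The deposited table holds FPKM values per gene, and no depth was given with them. Fragment numbers were rebuilt from the FPKM, which were whole multiples of a gene and a library constant, for all 30860 genes above 0. For 951 genes a common divisor was restored from exon length. Rebuilt fragments gave the depth, the limit of 3 fragments per library at or under which a gene counted as not detected, and the limma-voom alternative.

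The main test was limma 3.58.1 with trend in R 4.3.3 on log2(FPKM + 0.1), over genes with a mean of at least 0.1 FPKM, with all 9 libraries in 1 fit, 3 contrasts and Benjamini-Hochberg adjustment over all genes tested. The pseudocount understates changes of low genes. The script was tested on simulated data. Gene coordinates are from GENCODE vM39 on GRCm39, in which 54749 of the 55704 identifiers were found. The members and lists were chosen with earlier results of these data known. Genes called in a comparison or with a group mean of at least 5 FPKM are given with every library's value, and of the 2 further lists at most 10 and 6 called genes above that level with the largest change. Alternatives were a pseudocount of 1, no filter, a minimum mean of 1 FPKM, TPM, median-ratio and quantile scaling, limma-voom, a replicate block, the compared groups alone, no fold threshold, and each library left out.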

Additional observations from a re-analysis of the deposited data

How the results depend on the processing

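No called difference changed sign under the 19 alternatives, where an uncalled difference was taken to have no direction. Of the 28 differences called among the imprinted genes, 13 kept their call under every alternative that tested the gene, and 22 with each library left out. Counts are given below as higher and lower in bFGF/BMP4 against bFGF/EGF, then in BMP4 against bFGF/EGF, then in BMP4 against bFGF/BMP4, and the counts not named stayed within 1.5 times the values reported above. The cause of the changes was not tested, apart from the fewer genes tested under a higher filter and the smaller fold of low genes under a higher pseudocount.

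Without a fold threshold, imprinted genes were called 6 and 13, 8 and 11, and 5 and 5, the further imprinted genes lower in 10 for the first comparison, and the imprint maintenance genes higher in 2 for the first and lower in 4 for the last. With a pseudocount of 1 the imprinted genes were called 2 and 4, 2 and 4, and 1 and 2, the further imprinted genes 4 and 3, 6 and 5, and 3 and 1, and the maintenance genes higher in 0 for the first and lower in 1 for the last. With a minimum mean of 1 FPKM the imprinted genes were called 2 and 5, 4 and 5, and 1 and 4, the further imprinted genes 5 and 3, 7 and 5, and lower in 1 for the last, and the maintenance genes higher in 1 for the last. Limma-voom called 1 imprinted gene higher and 12 lower in the first comparison, and 9 further imprinted genes lower. With the compared groups alone, 1 maintenance gene was lower in the last comparison. Leaving out each library gave 1 to 2 imprinted genes higher in the first comparison, 1 to 2 further imprinted genes lower in the last, and for the maintenance genes 0 to 1 higher in the first, 0 to 1 higher in the last and 1 to 2 lower in the last.

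Deviations of same-numbered libraries from their group means correlated at -0.084 to 0.125, and those of differently numbered libraries at -0.154 to 0.081. With so few libraries these values cannot tell whether same-numbered samples were paired. With a replicate block the imprinted genes were called 2 and 8, 5 and 5, and 2 and 4, and both Meg3 calls were lost (adjusted p = 0.0647 and 0.0667, limma). Quantile normalization moved the median log2 fold change of all genes in BMP4 against bFGF/EGF from 0.10 to -0.03, and there 5 imprinted genes were called higher and 7 lower. With 15894346 to 17421587 fragments a library, a low FPKM can rest on few fragments, and how few depends on transcript length. Differences of H19, Meg3, Ddc and Ascl2 have the widest errors among those called.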
